A study of Arabidopsis thaliana with 4 samples.

Results

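A set of 42 nuclear genes for the plant photosystems and their light-harvesting antennas was followed among the 32633 loci measured in leaf RNA. It is a chosen list and may not hold every such gene. The genes were taken by locus identifier from 4 gene classes. Their measured values were not used, but earlier results of these data were known when the genes were chosen. They comprised 14 *LHCB* genes for the antenna of photosystem II, 6 *LHCA* genes for the antenna of photosystem I, 12 *PSA* genes for subunits of photosystem I and 10 *PSB* genes for subunits of photosystem II. Leaves of 3-week-old *Arabidopsis* plants of 2 genotypes were sequenced, with 2 biological replicates of each. The wild type (WT) was Col-0, and the *ldl1 ldl2* double mutant, in the same Col-0 background, came from a cross of the T-DNA insertion lines *ldl1-1* and *ldl2-1*, which affect a pair of homologs of human lysine-specific histone demethylase. All plants were uninfected and grown in 12 h of light per day. The number of plants pooled per library and the time of day of harvest were not stated in the sources used here. Levels are in FPKM, fragments scaled by transcript length and by the mapped reads of the library, so that levels of different genes can be set side by side. In whole leaves, fewer cells of a type and less RNA per cell cannot be told apart.

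Each photosystem is a pigment-protein complex in the thylakoid membrane of the chloroplast that drives electron transfer with light energy. Its core is encoded partly by the chloroplast genome, but the antenna proteins and many peripheral subunits are encoded in the nucleus and imported. In leaves these transcripts are among the most abundant of all, and many are known to follow light and the circadian clock, with *LHCB* and *LHCA* transcripts usually high in the day.

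The libraries stood apart by replicate number rather than by genotype. On the log2(FPKM + 1) scale, same-numbered libraries had a Pearson's r across genes of 0.954 in either pair, over the 16905 loci whose mean FPKM reached 1. It was 0.846 for the WT pair and 0.915 for the *ldl1 ldl2* pair. Genes are not independent replicates, so these values only describe the libraries. The mutated gene *LDL1* was at 4.37 and 5.001 FPKM in WT and stayed near that level in *ldl1 ldl2*, at 4.44 and 4.09. *LDL2* was at 1.04 and 0.944 FPKM in WT, and both mutant libraries were lower, at 0.281 and 0.673. These whole-gene values do not show where along the gene the reads lay, so they were not taken as a check of the labels. Both leaf markers were abundant, and the 9 flower, seed and root markers summed to 0.602 (WT) and 2.83 FPKM (*ldl1 ldl2*) in replicate 1, against 14.1 and 5.12 in replicate 2. Of these 9, *CRC* and *COBL9* were listed at 0 throughout. The floral gene *SEP3* was at 0 (WT) and 0.0969 FPKM (*ldl1 ldl2*) in replicate 1, against 4.46 and 3.13 in replicate 2. The floral genes *PI* and *AG* were higher in replicate 2 in WT but lower in *ldl1 ldl2*. The part of other tissues in the results was not tested.

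All 42 genes were expressed above the minimum of the test. Together they held 22.04% and 20.6% of the summed FPKM in WT replicates 1 and 2, and 24.3% and 22.0% in *ldl1 ldl2* replicates 1 and 2. The *LHCB* class alone held 9.14% and 9.07% in WT replicates, against 10.8% and 9.88% in those of *ldl1 ldl2*. By mean FPKM, *LHCB1.3* (AT1G29930) ranked 1 of all loci and *LHCB1.5* (AT2G34420) ranked 3. Both encode major trimeric antenna proteins of photosystem II, and *LHCB1.3* was measured at 18799.7 and 28445 FPKM in WT replicates 1 and 2, against 22711 and 27034 in those of *ldl1 ldl2*.

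The next antenna genes were *LHCA4* (AT3G47470), *LHCB3* (AT5G54270), *LHCB5* (AT4G10340), *LHCA1* (AT3G54890) and *LHCA3* (AT1G61520). *LHCA4*, which pairs with *LHCA1* on photosystem I, was at 11931 and 9587 FPKM in the WT libraries, against 12002 and 11454 in the mutant ones. *LHCB3*, a component of moderately bound trimers, was at 11361 and 8990.1 FPKM in the WT libraries, against 12752 and 11852 in the mutant ones, so that both mutant libraries lay above both WT libraries. Among the subunits of photosystem II the highest were *PSBR* (AT1G79040), *PSBO1* (AT5G66570) and *PSBX* (AT2G06520), and among those of photosystem I they were *PSAO* (AT1G08380), *PSAF* (AT1G31330) and *PSAL* (AT4G12800).

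The 3 lowest members were *LHCB4.3*, *LHCA6* and *LHCA5*. *LHCB4.3* (AT2G40100), the rarest of the genes for a minor antenna protein of photosystem II, was at 146 FPKM in WT replicate 1 and 20.4 in WT replicate 2, against 60.3 and 27.0 in those of *ldl1 ldl2*. *LHCA5* (AT1G45474) and *LHCA6* (AT1G19150) encode scarce antenna proteins that link photosystem I to the chloroplast NDH complex. *LHCA5* was at 357 and 211 FPKM in the WT libraries, against 297 and 239.5 in the mutant ones. The 3 rare genes were each higher in both replicate 1 libraries than in either replicate 2 library. This held for 25 of all 42 members and for 4135 of the 16905 loci tested.

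**Figure D1:**
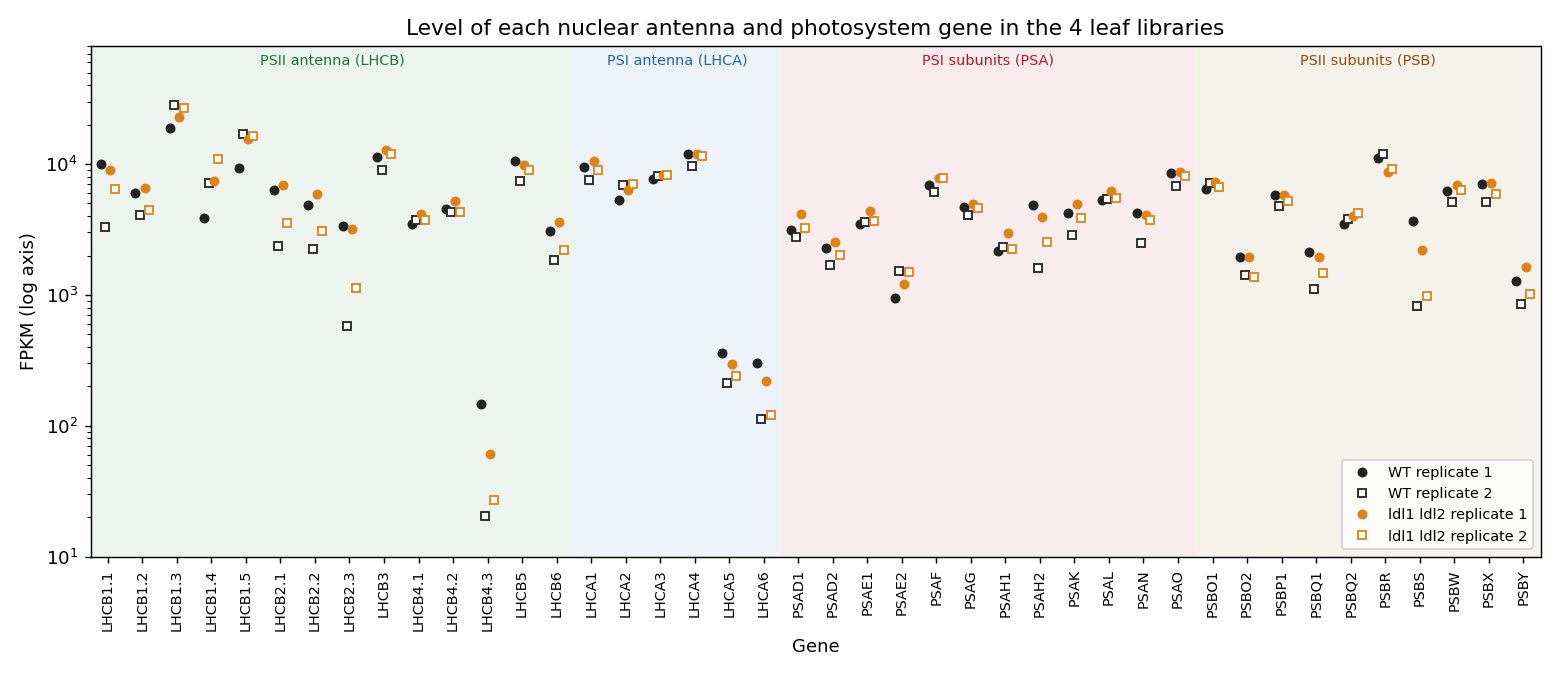
FPKM on a log axis for each of the 42 genes in the 4 libraries, grouped by class, with circles for replicate 1, squares for replicate 2, black for WT and orange for *ldl1 ldl2*. *LHCB1.3* is the highest, up to 28445 FPKM, and *LHCB4.3* the lowest, down to 20.4 FPKM.

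The 5 *LHCB1* genes are close copies that share 86.83% to 96.39% of coding bases in pairs, so their sequences bear on how well reads could be assigned. *LHCB1.1* (AT1G29920), *LHCB1.2* (AT1G29910) and *LHCB1.3* lie side by side on chromosome 1, and *LHCB1.4* (AT2G34430) and *LHCB1.5* lie side by side on chromosome 2. The first 57 coding bases of each gene, from the RefSeq annotation of TAIR10.1, are shown from 5′ to 3′ to let the copies be compared, with capitals at the 14 positions where the 5 genes are not all the same:
LHCB1.1 (chr1:10475836-10475892, minus strand): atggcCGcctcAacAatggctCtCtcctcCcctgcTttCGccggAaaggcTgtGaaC
LHCB1.2 (chr1:10473190-10473246, minus strand): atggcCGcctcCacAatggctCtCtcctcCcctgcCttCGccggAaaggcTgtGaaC
LHCB1.3 (chr1:10478071-10478127, plus strand): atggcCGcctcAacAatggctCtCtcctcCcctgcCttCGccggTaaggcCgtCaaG
LHCB1.4 (chr2:14524818-14524874, plus strand): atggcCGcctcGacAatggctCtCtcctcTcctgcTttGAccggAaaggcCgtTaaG
LHCB1.5 (chr2:14523457-14523513, minus strand): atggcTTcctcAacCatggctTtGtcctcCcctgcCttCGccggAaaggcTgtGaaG
Over the whole coding sequence *LHCB1.1* and *LHCB1.2* share 95.65% of bases and encode the same protein. *LHCB2.1* (AT2G05100) and *LHCB2.2* (AT2G05070) share 96.62% of coding bases. Of all stretches of 100 bases in the annotated transcripts, 1.51% to 4.44% of each *LHCB1* gene also occurred in another gene, as did 9.87% of *LHCB2.1* and 12.4% of *LHCB2.2*. No such stretch of the other 35 members occurred elsewhere. The reads were 100 bases from each end, and how the authors divided ambiguous reads is not given in the sources used here, so values of single *LHCB1* genes, *LHCB2.1* and *LHCB2.2* are less certain than their sums.

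The first comparison asked whether loss of LDL1 and LDL2 altered these genes. No member passed limma's test between genotypes, fitted without the replicate number, and neither did any other of the 16905 loci (background 0% of loci). At an unadjusted p under 0.05 limma called 394 loci and 0 members. For a single gene the smallest two-sided p of an exact permutation test is 0.333 at 2 libraries a group, and the replicate difference within each genotype adds to the spread that limma sees. The genotypes were therefore also compared within each replicate number, as a description.

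More than any other pattern, members were slightly higher in *ldl1 ldl2* within both replicate numbers. Of the 42 members, 24 were higher in *ldl1 ldl2* within both numbers, against 19.8% of all loci tested, and 21 to 28 were so under the other scalings run. Just 1 was lower within both, against 31.0% of all loci. None differed at least 2-fold in the same direction within both numbers, against 1.54% of all loci. Over the members, the median log2 ratio (*ldl1 ldl2* over WT) was 0.15 within number 1 and 0.22 within number 2, beside 0.01 and -0.10 over all loci tested.

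By class, the median over *LHCB* genes was 0.19 within number 1 and 0.34 within number 2, with 8 of 14 higher in *ldl1 ldl2* within both. *PSA* genes had medians of 0.21 and 0.22, with 8 of 12 higher within both. *LHCA* genes had medians of 0.05 and 0.14, with 4 of 6 higher within both. *PSB* genes had medians of 0.03 and 0.18, with 4 of 10 higher and 1 lower within both. Without WT replicate 2 the fitted median turned to -0.14 for *LHCB* and -0.096 for *PSB* genes, and without *ldl1 ldl2* replicate 1 that of *PSB* genes turned to -0.035. Each such fit leaves 1 genotype with a single replicate number, so the replicate difference enters its genotype ratio.

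Both mutant libraries lay above both WT libraries for 10 members, against 8.25% of all loci tested. The largest such difference was that of *LHCB1.4*, at 3887 and 7206 FPKM in WT replicates 1 and 2, against 7449 and 10946 in those of *ldl1 ldl2*. The mutant values lay above both WT values, but *ldl1 ldl2* replicate 1 exceeded WT replicate 2 only slightly. Its log2 ratio was 0.94 within number 1 and 0.60 within number 2, and the limma log2 fold change was 0.77 with a standard error of 0.50 (limma adjusted p = 1.0). The other 9 were *LHCB3*, *LHCB4.1* (AT5G01530), *LHCA3*, *PSAD1* (AT4G02770), *PSAE1* (AT4G28750), *PSAF*, *PSAL*, *PSBQ2* (AT4G05180) and *PSBW* (AT2G30570).

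*PSAD1* and *PSAE1* encode stromal subunits where ferredoxin docks, and *PSAF* encodes the subunit that receives plastocyanin. *PSAD1* was at 3129.5 and 2794 FPKM in the WT libraries, against 4169.7 and 3222 in the mutant ones. *PSAF* was at 6871 and 6070.1 FPKM in the WT libraries, against 7839 and 7869.8 in the mutant ones. For *PSAF* the mutant libraries nearly coincided, above both WT libraries, while *PSAK* (AT1G30380), whose product helps to bind the antenna, had a similar mean ratio with overlapping groups.

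*PSBR* was the exception in the other direction. This small subunit of photosystem II, located near the oxygen-evolving side, was at 11219 FPKM in WT replicate 1 and 11861 in WT replicate 2, against 8664 and 9239 in those of *ldl1 ldl2*. Both mutant libraries lay below both WT libraries, which held for this 1 member against 13.3% of all loci tested, and the replicates of a genotype lay close together. The log2 ratio was -0.37 within number 1 and -0.36 within number 2, and the limma log2 fold change of -0.37 had a standard error of 0.37 (limma adjusted p = 1.0). Limma with a trend draws the spread of each gene toward that of genes at a like level, so close replicates of 1 gene weigh little.

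The ratio had opposite signs within the 2 replicate numbers in 17 of the 42 members, beside 8254 of the 16905 loci tested. It was negative within number 1 and positive within number 2 in 11 of the 17, beside 2976 of all loci tested. *PSBS* (AT1G44575) encodes the protein that triggers the dissipation of excess light as heat, and its log2 ratio was -0.74 within number 1 and 0.24 within number 2. For *LHCB4.3* the ratios were -1.26 and 0.39, and for *LHCA6* they were -0.46 and 0.10. The sign also differed for *LHCB1.1*, at -0.16 and 0.96, for *LHCB2.3* (AT3G27690), at -0.09 and 0.97, and for *PSAH2* (AT1G52230), at -0.31 and 0.65. In the other 6 of the 17 the ratio was positive within number 1 and negative within number 2, beside 5278 of all loci tested. Of these, *LHCB1.5* had ratios of 0.72 and -0.06, *PSAH1* (AT3G16140) had 0.44 and -0.04, *PSAE2* (AT2G20260) had 0.33 and -0.02 and *LHCB1.3* had 0.27 and -0.07. The last 2 were *PSBO1*, at 0.16 and -0.10, and *PSBO2* (AT3G50820), at 0.01 and -0.05, both for an extrinsic protein of the oxygen-evolving complex. The comparison of replicate numbers that follows uses the same 4 libraries and is no independent check of this.

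**Figure D2:**
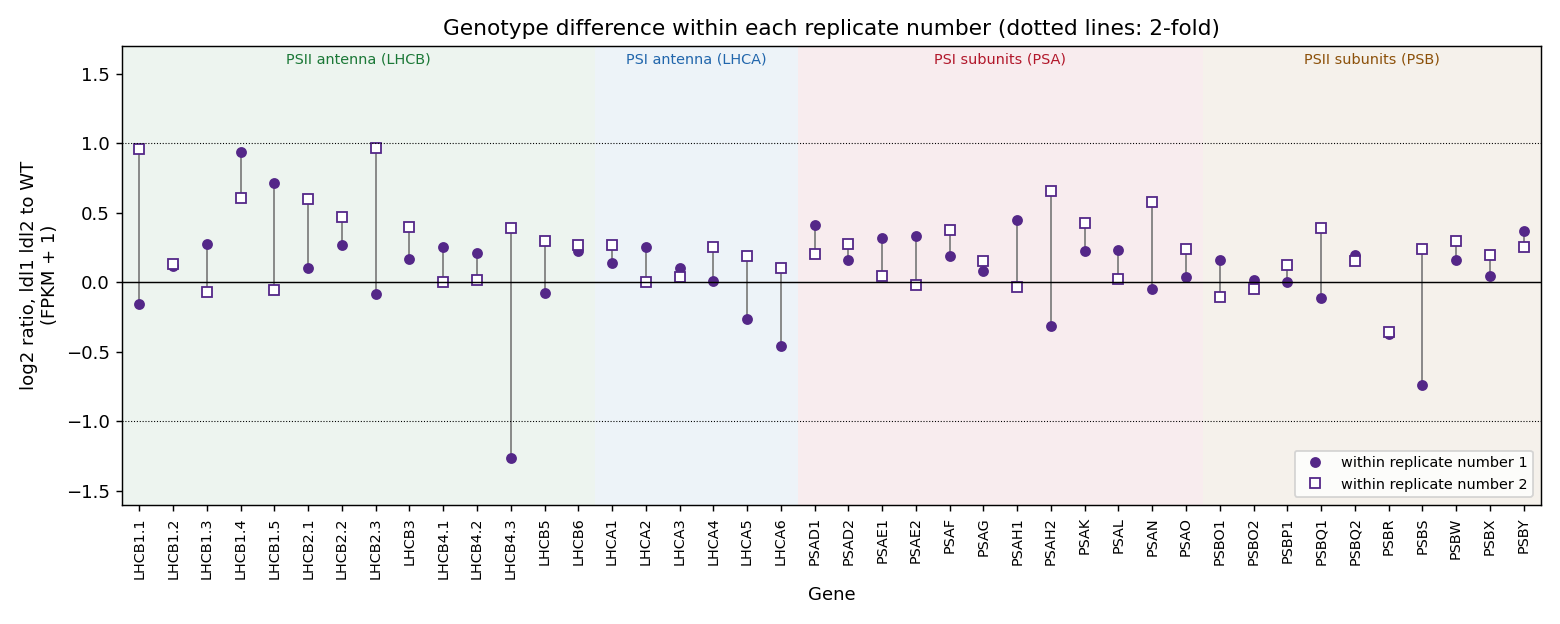
Genotype log2 ratio, *ldl1 ldl2* over WT (FPKM + 1) for each of the 42 genes, within replicate number 1 (circles) and number 2 (squares), with dotted lines at 2-fold. Points of 24 genes lie above 0 within both numbers, *PSBR* lies below 0 within both at -0.37 and -0.36, and *LHCB4.3* has the widest gap, from -1.26 to 0.39.

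The replicate numbers were then compared within each genotype. Replicate 2 libraries had lower levels of most members, and 8 of 42 fell by limma with genotype as a term, against 10.7% of all loci tested. None rose in this fit, against 13.2% of all loci. Scaling to the sum of nuclear loci, or a minimum mean FPKM of 5, gave 9 lower and 1 higher, adding *LHCB6* (AT1G15820) as lower and *LHCB1.4* as higher. Over all loci, the scaling called 1626 lower and 2030 higher, and the minimum called 1609 and 1947. The 8 were *LHCB1.1*, all 3 *LHCB2* genes, *LHCB4.3*, *LHCA6*, *PSAH2* and *PSBS*. The fit leaves 1 residual degree of freedom, its p-values measure the spread between these 4 libraries only, and whether same-numbered plants were grown or harvested together is not given in the sources used here. Member calls were 4 with no genotype term, where 1981 of the 16905 loci tested were called. They were 1 with no filter on low values, where 1685 loci were called. With 1 library left out, the fit had no genotype term and 1 group held 1 library, so its member calls are not given.

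In direction, 28 members were lower in replicate 2 in both genotypes, against 30.6% of all loci tested, and 7 were higher in both, against 47.2%. At least 2-fold lower in both were 3 members, *LHCB2.3*, *LHCB4.3* and *PSBS*, against 4.34% of all loci. At least 2-fold higher in both was no member, against 5.02%. The median log2 ratio of replicate 2 to replicate 1 over the members was -0.33 in WT and -0.22 in *ldl1 ldl2*, beside 0.20 and 0.07 over all loci. Rescaling the libraries by the median of ratios brought the median of all loci in WT plants from 0.20 to -0.00, and then 36 members were lower in both genotypes and 4 higher, with 5 called. The calls over all loci split as 2238 higher and 1806 lower as deposited, and as 1314 higher and 1765 lower after this rescaling.

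*LHCB2.3* encodes a major antenna protein that is phosphorylated when light energy is shifted between the photosystems, as do its relatives *LHCB2.1* and *LHCB2.2*. It was at 3389.7 (WT) and 3195 FPKM (*ldl1 ldl2*) in replicate 1, against 581 and 1138 in replicate 2. The replicate 1 libraries were alike in the 2 genotypes and far above replicate 2. The level was 5.83-fold lower in WT replicate 2 and 2.81-fold lower in *ldl1 ldl2* replicate 2, with a fitted log2 ratio of -2.02 and a standard error of 0.30 (limma adjusted p = 0.000361).

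*LHCB2.1* was at 6389 (WT) and 6865 FPKM (*ldl1 ldl2*) in replicate 1, against 2348 and 3554 in replicate 2 (limma adjusted p = 0.00684). *LHCB2.2* was at 4904 (WT) and 5899 FPKM (*ldl1 ldl2*) in replicate 1, against 2239 and 3093 in replicate 2 (limma adjusted p = 0.0136). Both followed the pattern of *LHCB2.3* with smaller ratios. In all 3 genes the replicate 2 libraries lay below both replicate 1 libraries, as in 25 of the 42 members.

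Of the minor antenna genes and the photosystem I antenna genes, *LHCB4.3* and *LHCA6* fell. *LHCB4.3*, whose levels are given above, was 7.17-fold lower in replicate 2 in WT plants and 2.23-fold lower in *ldl1 ldl2*, with a fitted log2 ratio of -1.96 and a standard error of 0.34 (limma adjusted p = 0.00108). Its relatives *LHCB4.1* and *LHCB4.2* (AT3G08940) had log2 ratios of 0.10 and -0.09 in WT plants and of -0.15 and -0.28 in *ldl1 ldl2*. *LHCA6* was at 301 (WT) and 219 FPKM (*ldl1 ldl2*) in replicate 1, against 113 and 121 in replicate 2, with a fitted log2 ratio of -1.12 and a standard error of 0.26 (limma adjusted p = 0.00769). No other *LHCA* gene passed the test. *LHCA2* (AT3G61470) was at 5344 (WT) and 6356 FPKM (*ldl1 ldl2*) in replicate 1, against 6969 and 6988 in replicate 2, the 1 *LHCA* gene above its replicate 1 levels in both genotypes.

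Among the photosystem subunits, *PSBS* and *PSAH2* stood out. *PSBS* was at 3701 (WT) and 2219 FPKM (*ldl1 ldl2*) in replicate 1, against 829 and 976 in replicate 2. The levels in the replicate 2 libraries were close to each other and under those of either replicate 1 library, and the fitted log2 ratio of -1.67 had a standard error of 0.29 (limma adjusted p = 0.00123). *PSAH2*, for a photosystem I subunit at the docking site of the mobile antenna, was at 4859 (WT) and 3909.7 FPKM (*ldl1 ldl2*) in replicate 1, against 1603 and 2521 in replicate 2, with a fitted log2 ratio of -1.12 and a standard error of 0.29 (limma adjusted p = 0.016).

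*PSBQ1* (AT4G21280), for an extrinsic protein of the oxygen-evolving complex, and *PSBY* (AT1G67740), for a small membrane subunit, were also lower in replicate 2 in both genotypes but did not pass the test. *PSBQ1* was at 2112 (WT) and 1955 FPKM (*ldl1 ldl2*) in replicate 1, against 1119 and 1464 in replicate 2 (limma adjusted p = 0.0908). *PSBY* was at 1272 (WT) and 1639.6 FPKM (*ldl1 ldl2*) in replicate 1, against 849.7 and 1014 in replicate 2 (limma adjusted p = 0.0922). By class, 10 of 14 *LHCB*, 4 of 6 *LHCA*, 7 of 12 *PSA* and 7 of 10 *PSB* genes were lower in replicate 2 in both genotypes. The replicate difference was larger in WT than in *ldl1 ldl2* for 33 of 42 members, near the 70.4% of all loci tested, and the difference between the genotypes in this respect could not be tested with 0 residual degrees of freedom.

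**Figure D3:**
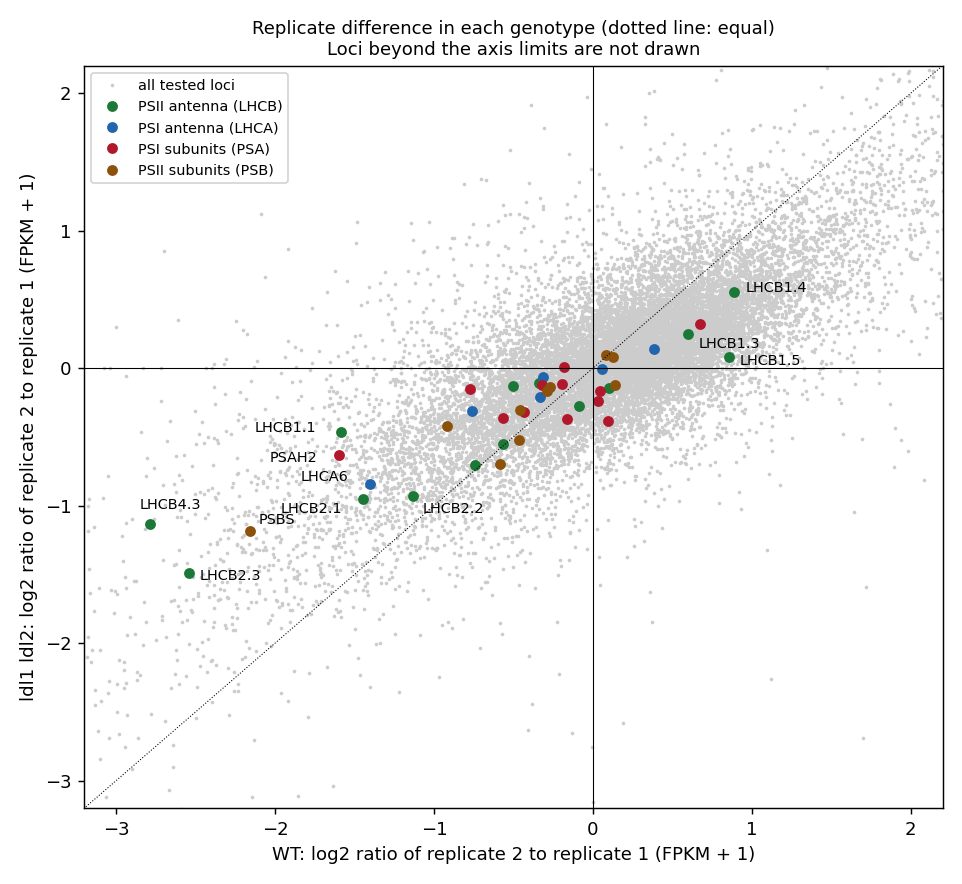
The log2 ratio of replicate 2 to replicate 1 (FPKM + 1) in WT (x axis) against that in *ldl1 ldl2* (y axis), with the 42 genes in colour by class and all tested loci in grey. *LHCB2.3*, *LHCB4.3* and *PSBS* lie beyond -1 on both axes, and *LHCB1.3*, *LHCB1.4* and *LHCB1.5* lie above 0 on both.

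In some families the copies went different ways between replicates. The summed *LHCB1* level was 48071 and 60035 FPKM in WT replicates 1 and 2 and 61055 and 65189 in *ldl1 ldl2*. *LHCB1.1* was at 9985 FPKM in WT replicate 1 and 3329 in WT replicate 2, against 8943 and 6468 in those of *ldl1 ldl2*, with a fitted log2 ratio of replicate 2 to replicate 1 of -1.03 and a standard error of 0.31 (limma adjusted p = 0.0291). It held 20.8% of the family in WT replicate 1 and 5.55% in WT replicate 2, and 14.6% and 9.92% in *ldl1 ldl2*. Its neighbours did not all move with it. *LHCB1.2* had log2 ratios of -0.56 in WT and -0.55 in *ldl1 ldl2*, while *LHCB1.3* had 0.60 and 0.25.

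On chromosome 2, *LHCB1.4* had log2 ratios of replicate 2 to replicate 1 of 0.89 in WT and 0.56 in *ldl1 ldl2*, and *LHCB1.5* had 0.85 and 0.08. None of the 3 copies that were higher in replicate 2 passed the test on the values as deposited, with limma adjusted p of 0.287 for *LHCB1.3*, 0.07 for *LHCB1.4* and 0.265 for *LHCB1.5*. *LHCB1.4* passed it when scaled to the sum of nuclear loci or with the minimum mean FPKM of 5. *LHCB1.5* was at 9404 and 16995 FPKM in the WT libraries, against 15444 and 16306 in the mutant ones, so that WT replicate 1 was the low library and the other 3 lay close together.

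The 3 *LHCB2* copies moved the same way, and their sum was 14683 (WT) and 15959 FPKM (*ldl1 ldl2*) in replicate 1, against 5168 and 7786 in replicate 2. *LHCB2.3* held 23.1% and 20.02% of this sum in WT and *ldl1 ldl2* replicate 1, and 11.2% and 14.6% in replicate 2. In the pair *PSAH1* and *PSAH2*, *PSAH2* held 69.2% and 57.004% of the sum in WT and *ldl1 ldl2* replicate 1, and 40.9% and 52.7% in replicate 2. *PSAE2* went the other way, with 21.4% and 21.6% of its pair in replicate 1 and 29.9% and 28.9% in replicate 2. In this last pair the shares were nearly the same in both genotypes within a replicate number. *PSBQ1* held 37.6% and 32.7% of the *PSBQ* sum in replicate 1 and 22.6% and 25.6% in replicate 2, and *PSBO2* held 23.01% and 21.3% of the *PSBO* sum in replicate 1 and 16.4% and 17.0% in replicate 2. *PSAD2* (AT1G03130), the lesser of its pair, held between 37.5% and 42.01% in the 4 libraries. No test was run on these shares, and reads of the *LHCB1* genes, *LHCB2.1* and *LHCB2.2* may be divided unevenly.

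**Figure D4:**
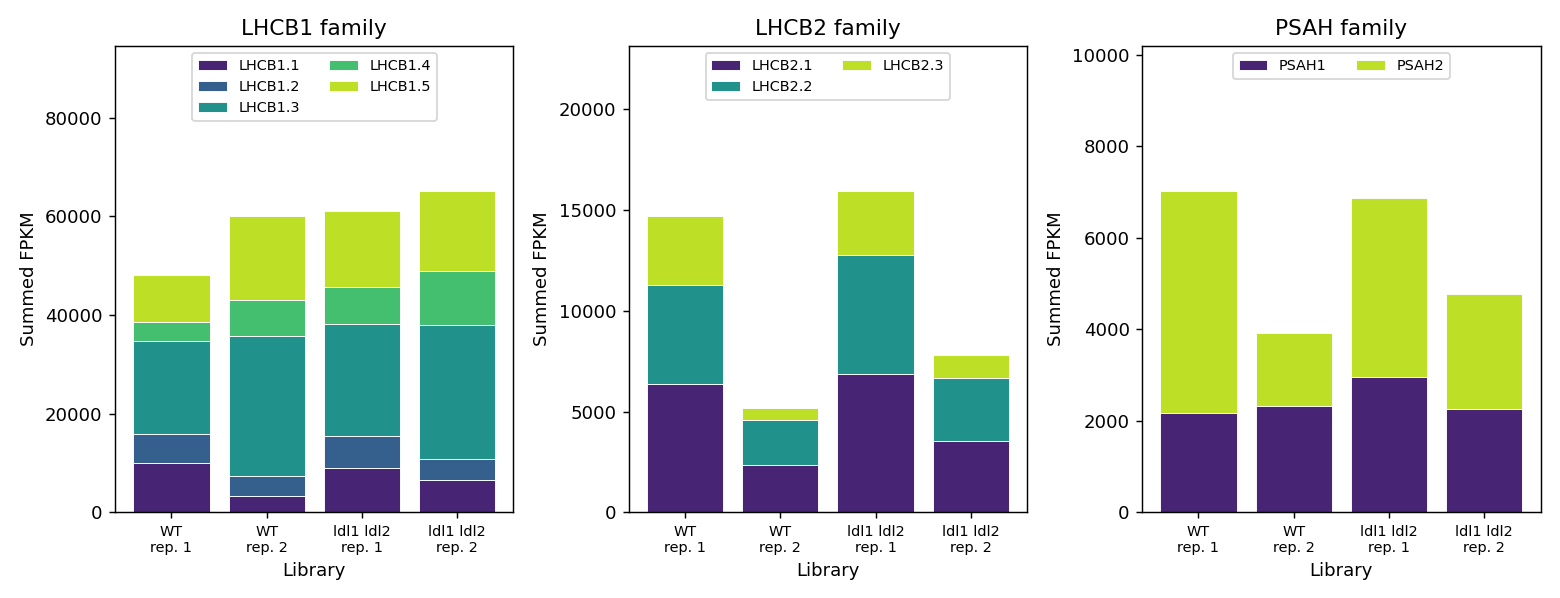
Stacked bars of FPKM by gene for the *LHCB1*, *LHCB2* and *PSAH* families in each library, with axes from 0. The *LHCB2* sum is 14683 and 15959 FPKM in the replicate 1 libraries and 5168 and 7786 in the replicate 2 libraries, while the *LHCB1* sum stays between 48071 and 65189.

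The 300 bases before the annotated start of each gene were searched on both strands, in the RefSeq genome of TAIR10.1, for the G-box CACGTG, the CCA1-binding site AAAAATCT, its variant AACAATCT, the evening element core AATATCT and the I-box core GATAAG. The promoters of *LHCB1.1* and its neighbour *LHCB1.3* are shown because the genes differed in direction between replicates, and those of *LHCB2.3* and *PSAH2* because they are 2 of the genes called. Capitals mark every match to a searched motif:
LHCB1.1 (chr1:10475970-10476269, minus strand): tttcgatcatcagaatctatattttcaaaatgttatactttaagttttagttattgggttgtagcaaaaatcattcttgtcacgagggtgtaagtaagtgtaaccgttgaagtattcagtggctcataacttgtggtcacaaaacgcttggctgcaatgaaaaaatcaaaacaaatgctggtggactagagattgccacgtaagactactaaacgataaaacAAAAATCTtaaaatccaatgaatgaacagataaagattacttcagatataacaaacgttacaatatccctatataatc
LHCB1.3 (chr1:10477585-10477884, plus strand): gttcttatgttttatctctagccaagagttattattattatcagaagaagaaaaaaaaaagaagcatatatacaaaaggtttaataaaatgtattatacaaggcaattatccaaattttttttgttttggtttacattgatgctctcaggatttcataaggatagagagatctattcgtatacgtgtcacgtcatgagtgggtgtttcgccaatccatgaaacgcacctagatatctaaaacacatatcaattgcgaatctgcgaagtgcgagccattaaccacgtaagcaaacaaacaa
LHCB2.3 (chr3:10255606-10255905, plus strand): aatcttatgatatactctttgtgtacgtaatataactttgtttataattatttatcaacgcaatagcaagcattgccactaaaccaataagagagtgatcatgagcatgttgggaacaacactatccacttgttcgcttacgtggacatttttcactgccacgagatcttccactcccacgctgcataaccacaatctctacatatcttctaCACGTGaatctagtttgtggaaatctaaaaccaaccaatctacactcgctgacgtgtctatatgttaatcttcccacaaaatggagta
PSAH2 (chr1:19454498-19454797, plus strand): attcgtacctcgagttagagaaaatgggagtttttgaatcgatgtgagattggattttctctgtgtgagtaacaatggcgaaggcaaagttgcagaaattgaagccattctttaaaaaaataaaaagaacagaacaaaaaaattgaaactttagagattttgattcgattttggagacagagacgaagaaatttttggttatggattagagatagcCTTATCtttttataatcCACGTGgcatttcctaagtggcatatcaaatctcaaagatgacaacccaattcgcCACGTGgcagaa
Of the 42 member promoters, 8 held the G-box, against 7.09% of all 27443 promoters searched. The CCA1-binding site was in 5, against 7.94%, the variant in 1, against 2.23%, the evening element core in 5, against 11.8%, and the I-box core in 9, against 14.5%. *LHCB1.1* had a CCA1-binding site 78 bases before its start, *LHCB2.3* a G-box at 88 bases, and *PSAH2* G-boxes at 67 and 12 bases and an I-box core on the reverse strand at 84 bases. The window of *LHCB1.3* held none of these letters. A match is a description of the sequence, and binding was not measured.

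Genes that work with the photosystems were set beside the members, from lists chosen with earlier results known. The counts that fell or rose in each list stand beside 10.7% and 13.2% of all loci tested. All 9 clock genes differed between replicate numbers by limma, 6 higher and 3 lower in replicate 2, with a median log2 ratio of 4.01 beside 0.14 over all loci tested. *CCA1*, which peaks near dawn, was at 50.4 (WT) and 16.6 FPKM (*ldl1 ldl2*) in replicate 1, against 3.85 and 2.44 in replicate 2, and *LHY*, its close relative, was at 22.9 and 8.92 and then at 0.236 and 0.380. The evening gene *TOC1* was at 2.94 (WT) and 3.48 FPKM (*ldl1 ldl2*) in replicate 1, against 109 and 88.03 in replicate 2. *ELF4*, of the evening complex, was at 0.328 and 0.526 FPKM and then at 131 and 147, and *PRR5*, a clock repressor, was at 0 and 0.174 and then at 51.0 and 63.9. The morning genes were thus low and the evening genes high in both replicate 2 libraries. The part of these clock differences in the photosystem and antenna results was not tested.

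Of the 8 photoprotective relatives of the antenna proteins, 5 fell in replicate 2 and 0 rose, with a median log2 ratio of -0.84. *ELIP1*, an early light-induced protein gene, was at 17.1 (WT) and 5.199 FPKM (*ldl1 ldl2*) in replicate 1, against 0.190 and 0.461 in replicate 2 (limma adjusted p = 7.19e-05). *ELIP2* was at 7.30 and 0.720 FPKM in replicate 1 and was listed at 0 in both replicate 2 libraries. These genes, which are induced by strong light, were lower in the same libraries as *PSBS*.

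Of 16 chlorophyll synthesis genes, 3 fell and 2 rose, with a median log2 ratio of -0.58. Those that rose encode protochlorophyllide oxidoreductases, the light-dependent enzymes of the pathway. *PORA* was at 0.314 (WT) and 1.28 FPKM (*ldl1 ldl2*) in replicate 1, against 8.24 and 23.1 in replicate 2 (limma adjusted p = 3.87e-06). *PORB* was at 314 (WT) and 419 FPKM (*ldl1 ldl2*) in replicate 1, against 1010.4 and 1131 in replicate 2 (limma adjusted p = 0.000818). The 3 that fell were *GUN4* and *CHLH*, which act in magnesium chelation, and *CAO*, which makes chlorophyll b.

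Of 11 electron carrier and ATP synthase genes, 3 fell and 1 rose, with a median log2 ratio of -0.52. *FD1*, a ferredoxin gene, was at 509 (WT) and 364 FPKM (*ldl1 ldl2*) in replicate 1, against 135 and 164 in replicate 2 (limma adjusted p = 0.00142). *ATPD*, for a subunit of the chloroplast ATP synthase, was at 1478 (WT) and 1042 FPKM (*ldl1 ldl2*) in replicate 1, against 537 and 786 in replicate 2 (limma adjusted p = 0.0374). Of 8 genes for antenna targeting and state transitions, 1 rose and 1 fell, with a median of -0.02. *TAP38*, for the phosphatase that acts on the antenna of photosystem II, was at 137 and 165 FPKM and then at 322 and 288 (limma adjusted p = 0.0129). *CPSRP43*, for the chaperone that delivers antenna proteins to the thylakoid, was at 325 and 321 FPKM and then at 174 and 199.6 (limma adjusted p = 0.038).

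Of 12 regulators of photosynthesis genes, 2 fell and 1 rose, with a median log2 ratio of -0.38. *SIG5*, a light-responsive sigma factor of the chloroplast polymerase, was at 48.5 (WT) and 16.8 FPKM (*ldl1 ldl2*) in replicate 1, against 8.53 and 8.28 in replicate 2 (limma adjusted p = 0.00208). *PIF3*, a phytochrome-interacting factor, was at 5.83 and 4.14 FPKM and then at 16.02 and 11.1 (limma adjusted p = 0.00194). None of the 5 reference genes passed the test at an adjusted or unadjusted p under 0.05 by limma. Their median log2 ratio was -0.37, beside -0.25 over the members, with 3 lower and 1 higher in replicate 2 in both genotypes. The most different, *UBQ10*, was at 1592 (WT) and 1687 FPKM (*ldl1 ldl2*) in replicate 1, against 1151 and 1084 in replicate 2. *EF1A* was at 477 and 355 and then at 343 and 266. Both leaf markers fell. *RCA*, for rubisco activase, was at 8143 and 6497 FPKM and then at 2441 and 2876 (limma adjusted p = 0.00208), and *RBCS1A*, which belongs to a family of close copies, was at 19500.4 and 12665 FPKM and then at 8135 and 9247 (limma adjusted p = 0.0488). Of 2 flower, seed and root markers that could be tested, *SEP3* rose and *PI* did not pass (limma adjusted p = 0.379). *PI* was at 0.0735 (WT) and 1.13 FPKM (*ldl1 ldl2*) in replicate 1, against 3.54 and 0.210 in replicate 2. It was thus higher in replicate 2 in WT and lower in *ldl1 ldl2*, as was *AG*, which lay below the minimum of the test. *AP1*, also below that minimum, was at 3.46 FPKM in WT replicate 2 and listed at 0 in the other 3 libraries.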

How the data were processed

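The 4 libraries were WT replicates 1 and 2 and *ldl1 ldl2* replicates 1 and 2, grouped by their sample titles. The authors deposited FPKM per gene. Per the paper's methods, stranded mRNA libraries were read as 100 bp paired ends, aligned with TopHat2 and Bowtie2 and quantified with Cufflinks on TAIR10 gene models, each library on its own. The submitters' processing notes name Trimmomatic 0.33, with no other versions in the sources used here. FPKM does not give read depth, so the precision of single values is unknown and no count test was run.

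The genotype test was limma 3.58.1 (R 4.3.3) on log2(FPKM + 1), two-sided and with a mean-variance trend, over the 16905 loci whose mean FPKM reached 1. Replicate numbers were compared with genotype as a term. P-values were adjusted by Benjamini-Hochberg over all these loci, at 0.05. Fold changes on this scale understate those of low genes. Alternatives changed the pseudocount, filter, scaling, replicate block or genotype term, or left out 1 library. The members and lists were chosen with earlier results of these data known. In each class the text names the 3 genes highest in mean FPKM, in genotype ratio and in replicate ratio, and members of paralog families. Of each list it names the 2 genes with the largest ratio, with *CCA1*, *LHY* and *TOC1*. Other genes were named after their values were seen. Sequences and positions came from RefSeq TAIR10.1, which matched all 42 members by locus tag. The lengths of the windows printed were chosen after seeing the data.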

Additional observations from a re-analysis of the deposited data

Results flagged for a closer look

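For 7 of the 42 members the log2 ratio of replicate 2 to replicate 1 had opposite signs in the 2 genotypes. The same held for 3715 of the 16905 loci tested. Each genotype had 2 libraries, and the difference between the genotypes was not tested. The ratio in *ldl1 ldl2* minus that in WT was -0.25 for *LHCB4.1*, -0.0648 for *LHCA3*, -0.27 for *PSAE1*, -0.48 for *PSAH1*, -0.21 for *PSAL* and -0.26 for *PSBO1*. For *PSAF* it was 0.18. In the first 6 genes the level was higher in replicate 2 in WT plants and lower in *ldl1 ldl2*, and in *PSAF* it was the other way. None of the 7 passed limma's test between replicate numbers.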

How the results depend on the processing

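No member was called between genotypes under any alternative run. Over all loci the genotype calls rose from 0 to 348 with the replicate number as a block, which calls 0 members, and leaving out 1 library gave 0 to 3. Same-numbered libraries deviated together, with a correlation of 0.726 across genes between the genotypes' replicate differences, but there are only 2 pairs and the labels do not say what a number shares, so the block was kept as an alternative.

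Between replicate numbers the calls over all loci went from 4044 to 1685 without the filter on low values, to 1981 without the genotype term and to 33 to 1434 when 1 library was left out. Member calls went from 8 to 5 after rescaling by the median of ratios, to 1 without the filter and to 4 without the genotype term. They went up to 10 with a minimum mean FPKM of 5 or when scaled to the sum of nuclear loci, which added *LHCB6* as lower and *LHCB1.4* as higher, and stayed at 8 with a pseudocount of 0.1. With 1 library left out, the replicate fit also dropped the genotype term and 1 group held 1 library. The member calls of this fit are therefore not given, and its counts over all loci only describe the fit. At an unadjusted p under 0.05 limma called 12 members, beside 6193 of the 16905 loci tested. Members higher in replicate 2 in both genotypes went from 7 to 4 with the rescaling.

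Fitted class medians (log2) between replicate numbers moved with the rescaling from -0.44 to -0.60 for *LHCB*, from -0.23 to -0.39 for *LHCA*, from -0.19 to -0.35 for *PSA* and from -0.30 to -0.46 for *PSB* genes, by construction of the new scale. That of *PSA* was -0.17 when scaled to the sum of nuclear loci. Between genotypes the *PSA* median went from 0.19 to 0.24 with the rescaling. Leaving out 1 library at a time, the genotype medians ranged from -0.14 to 0.43 for *LHCB*, from 0.0043 to 0.32 for *LHCA*, from 0.069 to 0.34 for *PSA* and from -0.096 to 0.28 for *PSB*. The replicate medians ranged from -0.54 to -0.33 for *LHCB*, from -0.36 to -0.10 for *LHCA*, from -0.31 to -0.088 for *PSA* and from -0.41 to -0.22 for *PSB*.

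The genotype ratio changed sign, none of it called, in 14 members without WT replicate 2, in 12 without *ldl1 ldl2* replicate 1, in 10 without WT replicate 1, in 7 without *ldl1 ldl2* replicate 2 and in 2 with the rescaling. The replicate ratio did so in 6 members without *ldl1 ldl2* replicate 1, in 3 without WT replicate 2, in 2 without WT replicate 1 and in 4 with the rescaling. With 1 library left out the groups are unbalanced, so each genotype ratio or median holds part of the replicate difference, and the reverse. Causes other than the new scale were not tested, and read depth is unknown.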
